A study of Mus musculus with 4 samples.

Results

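Genes of gamma delta and innate-like T cells were followed in human T cells from humanised mice with spinal cord injury (SCI). The set held 6 genes of 33538 human genes counted: TRDC (ENSG00000211829), TRGC1 (ENSG00000211689), TRGC2 (ENSG00000227191), KLRB1 (ENSG00000111796), SLC4A10 (ENSG00000144290) and ZBTB16 (ENSG00000109906). A T cell was a barcode with over 50% of its unique molecular identifiers (UMIs, tags that count single RNA molecules) on human genes and at least 1 UMI over CD3D, CD3E and CD3G. After quality filters, 13577 of 17047 human cells met this rule, of which 13499 came from blood. KLRB1 was found in 6107 of the 13577 T cells, TRGC2 in 3147, TRGC1 in 953, TRDC in 427, ZBTB16 in 88 and SLC4A10 in 10.

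The study profiled human CD45+ cells by droplet single-cell RNA sequencing in 4 libraries, each the only one of its condition. The hosts were huNSG-SGM3 mice, immunodeficient animals that received human cord blood CD34+ stem cells after irradiation; per the labels they were NOD.Cg-Prkdcscid with the IL2rgtm1Wjl allele, carried the transgene Tg(CMV-IL3,CSF2,KITLG)1Eav/MloySzJ and were 15 weeks of age. The transgene places human IL-3, GM-CSF and stem cell factor under a viral CMV promoter, in all 4 libraries. Blood was taken from naïve mice with no treatment, from sham mice 7 days after laminectomy at T9, and from SCI mice 7 days after T9 injury, whose injured cord gave the fourth library. The naïve and sham hosts were male and the SCI hosts were pooled males and females, so that host sex and injury cannot be told apart. Cells were sorted on human CD45, and the cord cells first passed a magnetic enrichment. With 1 library for each condition no test between conditions was possible: intervals below are 95% intervals for counting error only, and mice cannot be separated within a library.

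Most T cells carry a receptor of an alpha and a beta chain, whereas a smaller lineage carries a gamma and a delta chain. TRDC encodes the constant part of the delta chain and lies within the alpha chain locus, so that rearranging the alpha genes removes it from that chromosome. TRGC1 and TRGC2 encode the constant part of the gamma chain; they are near-identical copies whose reads the counting could split, and transcripts of gamma genes also occur in alpha beta T cells. KLRB1 (CD161) is a lectin receptor of NK cells and of type 17, memory and innate-like T cells. SLC4A10 encodes a bicarbonate transporter that marks mucosal-associated invariant T (MAIT) cells, and ZBTB16 encodes PLZF, the transcription factor that directs innate-like T cell development.

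The libraries held 34161760, 36007208, 36487994 and 4206461 UMIs in naïve blood, sham blood, SCI blood and SCI cord, and shared between 0 and 16 barcodes pairwise. T cells numbered 4620, 3934, 4945 and 78 in that order, with median depths of 3618, 5159, 4638 and 8150 UMIs. The alpha beta constant genes TRAC, TRBC1 or TRBC2 were found in 96.2% to 99.2% of them, in keeping with the T cell label. Exactly 1 CD3 UMI supported the call in 1.45% to 3.01% of blood T cells and in 7.69% of cord T cells. Since depth differed, shares of cells are also given after each cell was thinned to 1000 UMIs. B cells without a CD3 UMI (at least 2 UMIs over CD79A and MS4A1; 1295, 538 and 848 cells in naïve, sham and SCI blood, with median depths of 3744, 5665 and 4878 UMIs) served as the background for free RNA.

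TRDC was found in 192 of 4620 T cells in naïve blood (4.16%, interval 3.60 to 4.77), in 114 of 3934 in sham (2.90%, 2.40 to 3.47) and in 116 of 4945 in SCI blood (2.35%, 1.94 to 2.81). In the cord 5 of 78 T cells carried it (6.41%, 2.11 to 14.3). Naïve blood thus stood above both surgical libraries beyond counting error, while the intervals of sham and SCI blood overlapped and the cord interval took in all 3. Thinned to 1000 UMIs the blood shares were 2.68%, 1.86% and 1.33%, in the same order. B cells carried TRDC in 0.463%, 0% and 0.236%, below the T cells of every blood library.

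The level of TRDC did not follow the shares. Levels are in CPM, a gene's UMIs scaled to a common total of human UMIs that leaves out ribosomal and mitochondrial genes. TRDC stood at 43.8 CPM in naïve blood, 53.2 in sham, 27.5 in SCI blood and 59.4 in the cord. A TRDC-positive T cell held a median of 2.50 UMIs in naïve blood, 6.00 in sham and 3.00 in SCI blood, and the 10 cells with the most TRDC held 19.7%, 29.4% and 34.1% of its UMIs. TRDC-positive cells were also deeper in sham blood, with median depths of 3005, 5330 and 4316 UMIs, and scaled to depth their TRDC level was 1206, 1489 and 1006 CPM.

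TRGC1, in contrast, was most frequent after SCI. It was found in 222 T cells of naïve blood (4.81%, 4.21 to 5.46), in 189 of sham blood (4.80%, 4.16 to 5.52), in 529 of SCI blood (10.7%, 9.85 to 11.6) and in 13 of the cord (16.7%, 9.18 to 26.8). Naïve and sham blood did not differ beyond counting error and SCI blood lay above both. The cord interval took in that of SCI blood, and thinned the cord stood at 3.85%. The order of SCI blood over the other 2 remained in thinned cells, at 3.52% against 1.56% in naïve and 1.09% in sham blood, and in level, at 47.2 CPM against 22.7 and 17.7. Its background in B cells was 0.0772% to 0.354%.

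TRGC2 was the more abundant gamma constant gene. It was found in 22.0% of T cells in naïve blood (20.8 to 23.2), 19.4% in sham (18.1 to 20.6), 27.1% in SCI blood (25.9 to 28.4) and 35.9% in the cord (25.3 to 47.6). At 1000 UMIs the shares were 11.3%, 7.93%, 12.0% and 8.97%, so that the cord no longer stood above blood. Its level was 232 CPM in naïve blood, 135 in sham, 215 in SCI blood and 188 in the cord. Sham blood was the lowest on each of these scales in blood. In B cells TRGC2 was found in 0.541%, 1.12% and 0.354%.

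KLRB1 was carried by nearly every second T cell except in SCI blood. The shares were 47.1% in naïve blood (45.6 to 48.5), 50.4% in sham (48.8 to 52.0), 38.7% in SCI blood (37.3 to 40.0) and 48.7% in the cord (37.2 to 60.3), against 0.186% to 0.849% of blood B cells. Thinned, they were 26.2%, 24.5%, 18.8% and 24.4%. Its levels were 526, 483, 396 and 534 CPM, with SCI blood the lowest of the 4 libraries by share and by level.

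ZBTB16 and SLC4A10 were rare. ZBTB16 was found in 38 T cells of naïve blood (0.823%, 0.583 to 1.13), 15 of sham blood (0.381%, 0.214 to 0.628), 31 of SCI blood (0.627%, 0.426 to 0.889) and 4 of the cord. In sham blood this was at the background, since 0.558% of its B cells also held a UMI, whereas B cells of naïve and SCI blood held it in 0.0772% and 0%. SLC4A10 was found in 4 T cells of naïve blood, 1 of sham blood, 5 of SCI blood and 0 of 78 in the cord, which allows a share of up to 3.85% by the limit of 3 counts. No blood B cell held a UMI of SLC4A10.

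**Figure D1:**
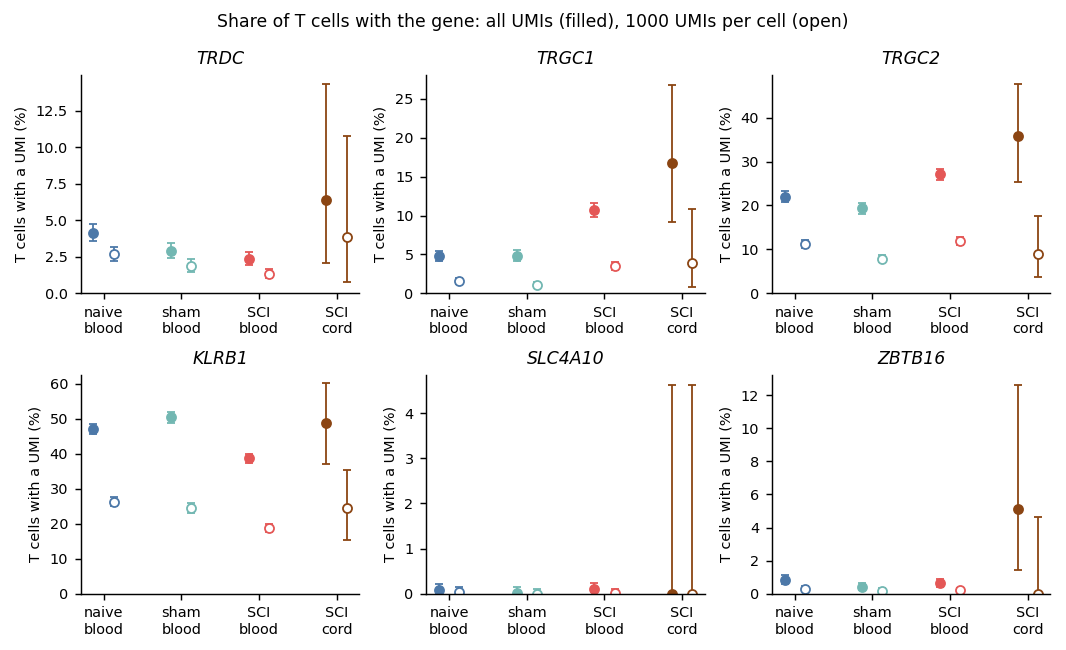
Percent of T cells with at least 1 UMI of each member gene (y axis) in the 4 libraries (x axis), with all UMIs of a cell (filled) and after thinning each cell to 1000 UMIs (open). Bars are exact binomial 95% intervals for counting error. TRGC1 stands highest in SCI blood among the blood libraries and KLRB1 lowest there, while the cord, with 78 T cells, has wide intervals.

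The comparison of naïve with sham blood addresses surgery without neural injury. T cells of sham blood held less TRGC2 than those of naïve blood (log2 ratio of CPM -0.78, interval -0.86 to -0.70). They also held less ZBTB16 (-1.61, -2.46 to -0.86, from 20 and 52 UMIs, the former not clear of the background of B cells). TRGC1 (-0.36, -0.59 to -0.13), KLRB1 (-0.12, -0.17 to -0.08) and TRDC (0.28, 0.13 to 0.43) stayed within 1.5-fold. Of the 5 members with at least 20 counts, 2 were past 1.5-fold, and 10.0% of all 13664 genes compared were. The direction of TRDC turned under other settings: without T cells that held markers of other lineages its ratio was -0.13, and as a mean of the cells' own CPM it was -0.24.

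SCI blood against naïve blood addresses injury with surgery, and its host sexes differed as well. TRGC1 was higher after SCI (log2 ratio 1.06, 0.88 to 1.25) and TRDC lower (-0.67, -0.84 to -0.50). KLRB1 was lower by less than 1.5-fold (-0.41, -0.45 to -0.36), TRGC2 differed little (-0.11, -0.18 to -0.05), and the interval of ZBTB16 held 0 (-0.33, -0.91 to 0.26). Past 1.5-fold were 2 of 5 members against 13.4% of 13712 genes. With the CD4 and CD8 gates described below weighted equally in both libraries only TRGC1 (0.85) remained past it, TRDC being at -0.43.

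Against sham blood, SCI blood held more TRGC1 (1.42, 1.23 to 1.61), more TRGC2 (0.67, 0.59 to 0.74) and less TRDC (-0.95, -1.11 to -0.79). SCI blood also held more ZBTB16 (1.28, 0.54 to 2.13, from 52 and 20 UMIs, the latter not clear of the background of B cells). In SCI blood 10 T cells held 59.6% of the ZBTB16 UMIs, and the intervals of its shares in SCI and sham blood overlapped. KLRB1 was lower by less than 1.5-fold (-0.29, -0.33 to -0.24). Past 1.5-fold were thus 4 of 5 members, against 12.3% of 13852 genes. With equal gate weights the ratio of TRGC2 was 0.33, within 1.5-fold. SCI blood is shared by this comparison and the one with naïve blood, which are therefore not independent.

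The cord was compared with blood of the same injured group. TRDC was higher in cord T cells (1.13, 0.59 to 1.59, from 37 UMIs in 5 cells), as was ZBTB16 by its point value (1.34, from 4 UMIs), with an interval of -0.74 to 2.63 that held 0. TRGC1 (0.56, 0.07 to 0.99), KLRB1 (0.43, 0.27 to 0.59) and TRGC2 (-0.19, -0.47 to 0.07) were within 1.5-fold. Past 1.5-fold were 2 of 5 members, against 38.4% of 12712 genes, so this share is close to the background of so small a library. These 2 members, TRDC and ZBTB16, shared cells: 3 of the 4 ZBTB16-positive cord T cells also held TRDC. Their values are therefore not independent. Markers of other lineages moved with both genes: 3 of the 5 TRDC-positive and all 4 ZBTB16-positive cord T cells held at least 2 UMIs over 6 NK and innate genes (NCAM1, KLRF1, TYROBP, FCER1G, NCR1 and SH2D1B, called the NK gate below), against 15.4% of all cord T cells. The 9 myeloid genes LYZ, CD14, S100A8, S100A9, MNDA, CST3, HDC, CPA3 and TPSAB1 summed to 7855 CPM in the TRDC-positive and 6990 CPM in the ZBTB16-positive cord T cells, against 3579 CPM in all of them, with LYZ, CD14, S100A8, S100A9 and MNDA at 0 in both. At least 2 UMIs of these 9 genes were held by 1 of the 5 and 2 of the 4 cells, against 12.8% of all. NCAM1 and KLRF1 were at 0 in cord T cells, and the summed level of the 6 NK and innate genes was 3553 CPM in the TRDC-positive ones against 687 CPM in all cord T cells. Without TYROBP and FCER1G the sums were 72.5 CPM and 4.81 CPM. Without cells holding NK, B or myeloid markers the TRDC ratio turned to -0.40, and 0 ZBTB16-positive cells were left in the cord.

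**Figure D2:**
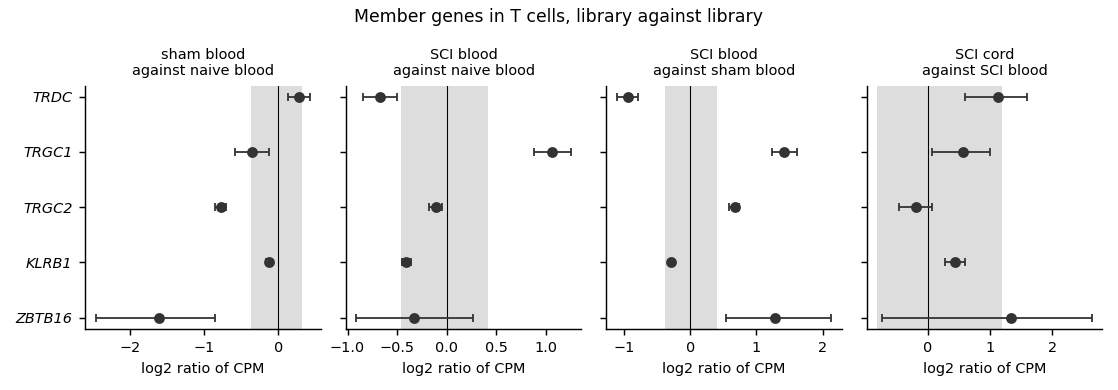
Log2 ratio of CPM (x axis) of 5 member genes (y axis) in T cells for 4 comparisons of libraries, each panel with its own x range. Bars are conditional binomial 95% intervals and the grey band spans the 10th to the 90th percentile of all genes compared. TRGC1 lies right of the band in both comparisons of SCI blood, TRDC left of it, and in the cord comparison all members but ZBTB16 lie inside the band.

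The constant genes were next related to the coreceptors. T cells were gated on detected UMIs as CD4-only, CD8-only (CD8A or CD8B), both, or neither; at these depths a cell in the last gate can still express either. TRDC lay chiefly outside the CD4 and CD8 gates. Cells with neither coreceptor held 80.7% of the TRDC-positive T cells in naïve blood, 63.2% in sham and 52.6% in SCI blood, and the TRDC levels there were 73.1, 96.5 and 46.9 CPM. In CD4-only cells TRDC stood at 15.2, 30.8 and 22.4 CPM and in CD8-only cells at 13.8, 28.9 and 11.9 CPM.

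The gamma constant genes followed CD8. TRGC2 was found in 53.9%, 49.9% and 53.0% of CD8-only cells of naïve, sham and SCI blood, but in 9.41%, 8.12% and 11.1% of CD4-only cells. Within CD8-only cells its level was 685, 414 and 510 CPM. The share thus differed less between libraries than the level, which was highest in naïve blood. In blood, FOXP3-positive cells, which include regulatory T cells, held TRGC2 in only 3.81% to 5.32%.

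TRGC1 was higher in SCI blood within the CD8-only gate too, where it was found in naïve, sham and SCI blood in 8.81%, 8.37% and 17.1% of cells. The log2 ratio of its CPM in CD8-only cells was 0.90 for SCI against naïve blood (0.62 to 1.19) and 1.44 for SCI against sham blood (1.16 to 1.74). In cells with neither coreceptor the ratios were 1.02 (0.69 to 1.36) and 1.10 (0.75 to 1.46). In CD4-only cells they were smaller, at 0.27 (-0.15 to 0.70) against naïve and 0.80 (0.39 to 1.21) against sham blood. CD8-only cells also made up more of the T cells in SCI blood, 33.7% against 19.7% in naïve and 22.2% in sham. The CD8A without CD8B gate gave 22.5% TRGC1-positive cells in SCI blood, against 9.49% in naïve and 10.5% in sham. This coreceptor form is common among innate-like cells, but a cell without a CD8B UMI can still express CD8B. The level of TRGC1 in this gate was 115 CPM in SCI blood, against 50.6 in naïve and 43.9 in sham. Cells with CD8B showed the same order, at 80.6 CPM against 44.3 and 27.0. Whether innate-like cells carried the difference was not tested. In the cord, 6 of 19 CD8-only cells held TRGC1 and 14 held TRGC2.

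KLRB1 showed the opposite preference. It was found in 57.9%, 60.8% and 50.8% of CD4-only cells and in 25.0%, 31.5% and 21.6% of CD8-only cells. SCI blood was below naïve blood in both gates, by a log2 ratio of CPM of -0.29 (-0.37 to -0.21) in CD4-only and -0.41 (-0.55 to -0.28) in CD8-only cells. Against sham blood the values were -0.10 (-0.17 to -0.03) and -0.67 (-0.79 to -0.55). Among cells with CD40LG, the helper ligand for B cells, the shares were 62.3%, 66.1% and 51.7%. Cells with both PDCD1 and CD200, few in number, carried KLRB1 in 25 of 29, 28 of 36 and 18 of 22. Naive-like cells with NRP2, AK5 or NOG carried it in only 21.6%, 25.7% and 13.6%, and FOXP3-positive cells in 47.3%, 43.3% and 47.9%.

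Cytotoxic cells differed between the libraries in their constant genes. In cells with at least 2 UMIs over GZMH and GNLY together, which encode a granzyme and the pore-forming peptide granulysin, TRDC was found in 91 of 242 in naïve blood (37.6%, 31.5 to 44.0), 15 of 146 in sham (10.3%, 5.87 to 16.4) and 23 of 333 in SCI blood (6.91%, 4.43 to 10.2). TRGC1 was found there in 14.0%, 14.4% and 37.2% (32.0 to 42.7). The cytotoxic cells of naïve blood were thus rich in TRDC and those of SCI blood in TRGC1, each beyond counting error, and TRGC2 was frequent in all 3 at 83.5%, 63.7% and 75.1%. KLRB1 was found in only 19.0%, 27.4% and 26.7%. Cells with GZMK, another granzyme gene, showed the same order for TRDC, at 136, 82.4 and 26.3 CPM, and again the highest TRGC1 in SCI blood, at 49.3, 39.3 and 75.6 CPM. Of the 13 cytotoxic cord T cells, 6 held TRGC1, 8 held TRGC2 and 0 held TRDC.

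**Figure D3:**
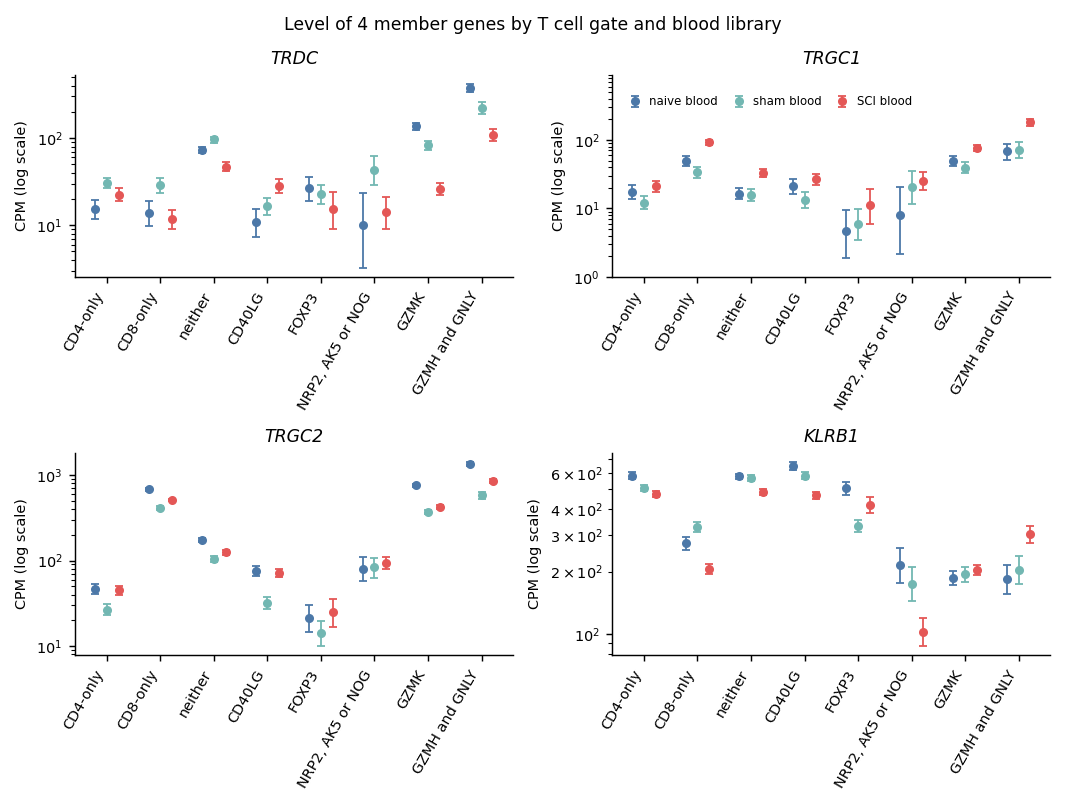
Level in CPM (y axis, log scale) of TRDC, TRGC1, TRGC2 and KLRB1 in T cell gates (x axis) of naïve, sham and SCI blood. Bars are exact Poisson 95% intervals, and gates overlap. TRGC2 is highest in the GZMK, CD8-only and GZMH and GNLY gates, KLRB1 in the CD4-only, neither and CD40LG gates, and in the GZMH and GNLY gate TRDC is lowest and TRGC1 highest in SCI blood.

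TRDC-positive T cells were of more than 1 kind. In naïve blood 137 of the 192 also held TRGC1 or TRGC2 (71.4%), in sham 69 of 114 (60.5%), in SCI blood 52 of 116 (44.8%) and in the cord 1 of 5. As a share of all T cells these double-positive cells were 2.97% (2.50 to 3.50), 1.75% (1.37 to 2.21) and 1.05% (0.786 to 1.38) in blood. TRDC-positive cells without a gamma constant gene made up 1.19%, 1.14% and 1.29%, with overlapping intervals. The lower shares of TRDC-positive cells in sham and SCI blood thus lay in the cells that also held a gamma constant gene.

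Cells with TRDC and a gamma constant gene mostly lacked coreceptor transcripts. Neither CD4 nor CD8 was detected in 85.4%, 71.0% and 67.3% of them, and CD4 in 6.57%, 10.1% and 5.77%. Their TRAC level was 743, 494 and 511 CPM, against 1768, 1771 and 1545 CPM in TRDC-negative T cells. The GZMH and GNLY gate held 64.2% of them in naïve blood, 17.4% in sham and 38.5% in SCI blood, and KLRB1 was found in 12.4%, 27.5% and 32.7%.

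Cells with TRDC but no gamma constant gene held more CD4 and TRAC. CD4 was found in 21.8%, 42.2% and 46.9% of them, and TRAC stood at 1443, 1266 and 1162 CPM. KLRB1 was found in 43.6%, 55.6% and 48.4%, and the GZMH and GNLY gate held 4.69% to 6.67%. In SCI blood CD40LG was found in 37.5% of them (24 of 64), against 3.64% in naïve and 17.8% in sham blood.

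The beta constant genes differed from each other. In naïve blood TRBC1 was higher in double-positive cells than in TRDC-negative T cells, at 1153 against 956 CPM, while TRBC2 was lower, at 457 against 932 CPM. In sham blood both were lower, at 390 and 633 CPM against 936 and 1092 CPM, and in SCI blood too, at 573 and 564 CPM against 857 and 939 CPM.

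**Figure D4:**
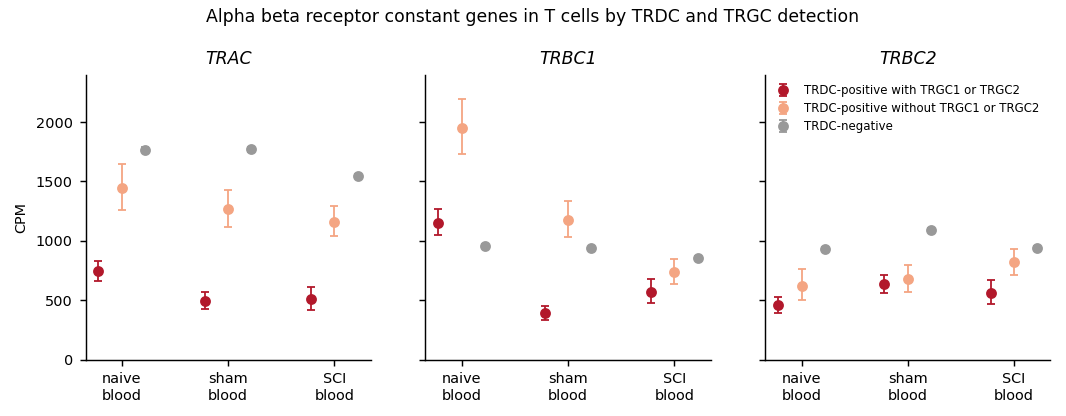
Level in CPM (y axis) of TRAC, TRBC1 and TRBC2 in T cells of the 3 blood libraries (x axis), split into TRDC-positive cells with TRGC1 or TRGC2, TRDC-positive cells without them, and TRDC-negative cells. Bars are exact Poisson 95% intervals. TRAC is lowest in the TRDC-positive cells with TRGC1 or TRGC2 in each library, and TRBC1 in naïve blood is the exception to the lower beta constant levels of those cells.

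A stricter gamma delta pattern, TRDC with TRGC1 or TRGC2 and no TRAC UMI, held for 44 T cells in naïve blood (0.952%, 0.693 to 1.28), 14 in sham (0.356%, 0.195 to 0.596), 19 in SCI blood (0.384%, 0.231 to 0.599) and 0 of 78 in the cord. Naïve blood stood above both surgical libraries, which did not differ beyond counting error. Of these cells 41 of 44, 11 of 14 and 16 of 19 had neither CD4 nor CD8. The NK gate held 13.6%, 7.14% and 42.1% of them, and without T cells holding markers of other lineages the shares were 0.896%, 0.326% and 0.212%. Since TRAC was detected in 93.2% to 96.3% of blood T cells, its absence from a cell does not by itself mark another lineage. The pattern sets no limit on the beta constant genes. Its cells held TRBC1 at 1017, 169 and 424 CPM in naïve, sham and SCI blood, and TRBC2 at 315, 450 and 666 CPM. In naïve blood this TRBC1 level was above the 956 CPM of TRDC-negative T cells. The pattern also left out 93, 55 and 33 double-positive cells that held TRAC.

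A MAIT-like pattern of KLRB1 with SLC4A10 held for 3 T cells in naïve blood (0.0649%, 0.0134 to 0.190), 0 of 3934 in sham (up to 0.0763% by the limit of 3 counts), 5 in SCI blood (0.101%, 0.0328 to 0.236) and 0 in the cord. No difference between libraries was detectable at these counts. Of the 10 SLC4A10-positive T cells, all held TRAC, 8 held KLRB1, 8 held GZMK, 7 held CXCR6, a tissue-homing chemokine receptor, 4 held CCR6 and 2 held ZBTB16, while TRDC was found in 0. In the other direction, KLRB1 was found in 81.6%, 66.7% and 71.0% of ZBTB16-positive T cells in naïve, sham and SCI blood, against 46.8%, 50.3% and 38.5% of the rest. TRGC1 was found in 13.2%, 20.0% and 29.0% of ZBTB16-positive cells against 4.74%, 4.75% and 10.6%, although these were also the deeper cells (medians of 4379, 6018 and 4974 UMIs against 3612, 5156 and 4637).

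The genes that accompanied each member were ranked by the smallest of its 3 log2 ratios of CPM between member-positive and member-negative T cells in blood. Called genes were those at least 2-fold higher, or lower, in all 3 blood libraries. For TRDC these were 0.696% (higher) and 0.0557% (lower) of 7181 genes. Among 13 tested gamma delta-associated genes of a list of 16, 5 were higher and 0 lower: KLRD1, the CD94 subunit of NK receptors, NKG7, GZMB, GNLY and PRF1, the perforin gene. GNLY stood at 3801, 1146 and 1642 CPM in TRDC-positive cells of naïve, sham and SCI blood, against 303, 363 and 550 CPM in the rest. KLRD1 stood at 99.2, 70.3 and 226 CPM against 25.0, 19.4 and 51.0 CPM. The median of the lowest ratios over the 13 genes was 1.28, beside 0.05 over all genes tested.

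The 5 leading companions of TRDC were IGFBP7, the chemokine gene XCL2, CPA3, FCER1A and MS4A2. CPA3 encodes a mast cell protease, and FCER1A and MS4A2 encode chains of the high-affinity IgE receptor of basophils and mast cells. MS4A2 stood at 54.3, 392 and 43.6 CPM in TRDC-positive T cells against 10.8, 12.7 and 10.9 CPM in TRDC-negative ones, log2 ratios of 2.35, 4.95 and 2.03. Without T cells holding at least 2 UMIs of NK, B or myeloid markers, CPA3 among them, an alternative chosen after these values were seen, the 171, 85 and 89 TRDC-positive T cells left in naïve, sham and SCI blood held 1, 1 and 0 UMIs of MS4A2, against 5, 11 and 8 in the TRDC-negative ones, and 2, 0 and 1 of XCL2, against 36, 6 and 34. IGFBP7 had 0 UMIs in both kinds of cell, and CPA3 and FCER1A at most 1 in the positive and 5 in the negative cells of a library. These counts are too few to say whether the 5 genes still went with TRDC.

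TRGC1 and TRGC2 went with cytotoxic genes as well. For TRGC1, 0.323% of 9279 genes were higher and 0.0431% lower, and of 15 gamma delta-associated genes 5 were higher (NKG7, GZMB, GNLY, CCL5 and FCGR3A) and 0 lower. For TRGC2, 1.12% of 11298 genes were higher and 0.168% lower, and of 16 such genes 9 were higher and 0 lower. The leading companions of TRGC2 were FGFBP2, GZMH, GZMB, UNC5B-AS1 and CCL4, of which FGFBP2 and GZMH mark cytotoxic lymphocytes. GZMH stood at 107, 166 and 188 CPM in TRGC2-positive cells against 4.19, 5.02 and 12.1 CPM, and GZMB at 69.6, 162 and 131 CPM against 5.24, 5.31 and 7.14 CPM. UNC5B-AS1 had no UMI in the TRGC2-negative T cells of sham and SCI blood, so that no fold is given.

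The leading companions of TRGC1 were CPVL, GZMB, FPR1, FCGR3A and MCEMP1. CPVL, FPR1 and MCEMP1 are genes of myeloid cells, and myeloid markers moved with TRGC1: at least 2 UMIs over the 9 myeloid genes were found in 3.15%, 4.76% and 0.378% of TRGC1-positive T cells, against 1.34%, 1.47% and 0.849% of all T cells. Their summed level was 5099, 7743 and 132 CPM against 786, 1001 and 197 CPM. Without T cells holding markers of other lineages, CPVL, FPR1 and MCEMP1 had at most 6 UMIs in a blood library, too few for a comparison. The ratio of FCGR3A there was -0.34 in naïve blood, from 4 UMIs, while GZMB stayed at 2.15, 3.40 and 1.94. The NK gate held 6.31%, 7.94% and 6.99% of TRGC1-positive T cells and 3.44%, 6.17% and 8.43% of TRGC2-positive ones, against 1.90%, 2.95% and 5.18% of all T cells. In SCI blood, where TRGC1 was highest, the myeloid genes were thus below and the NK gate above the values of all T cells. Without cells holding NK, B or myeloid markers TRGC1 kept ratios of 1.00 against naïve and 1.39 against sham blood.

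For KLRB1 more genes were lower than higher. Of 12203 genes 0.270% were higher and 0.836% lower, and of 16 gamma delta-associated genes 0 were higher and 4 lower (NKG7, GZMM, GNLY and CCL5). CCL5, a chemokine of effector T cells, stood at 151, 120 and 255 CPM in KLRB1-positive cells against 744, 551 and 869 CPM. Of 13 naive and recent thymic emigrant genes 4 were lower (NRP2, AK5, NOG and ACTN1) and 0 higher, while TCF7 (0.13, 0.17 and -0.16) and TOX (0.62, 0.52 and 0.76) stayed within 2-fold. Of 20 tested MAIT-associated genes of a list of 23, 2 were higher and 0 lower, CCR6, a chemokine receptor, among them. CCR6 stood at 66.0, 57.9 and 56.8 CPM against 24.1, 19.0 and 17.4 CPM. The leading companions were PTPN13, AC007638.1, MYO7A, PPARG and FGF18. PTPN13, a tyrosine phosphatase gene, stood at 7.84, 7.86 and 5.35 CPM against 1.06, 1.31 and 0.743 CPM.

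The other lists moved with the members as follows, in counts that are read against the shares of all genes given above for each member. The 3 alpha beta constant genes passed 2-fold with none of the 4 members. Of the effector genes, IFNG and TBX21 were higher with TRDC (2 of 5 tested) and TBX21 with TRGC1 (1 of 5). With TRGC2, IFNG, TBX21 and EOMES were higher (3 of 6). With KLRB1, 1 of 6 tested effector genes was higher and 1, EOMES, was lower. Of the MAIT-associated genes CEBPD was higher with TRGC1 (1 of 13 tested), and CEBPD and PRR5 with TRGC2 (2 of 17). With TRDC 0 of 8 tested passed. Of the naive and recent thymic emigrant genes, PECAM1 was higher and NRP2 lower with TRGC2 (1 and 1 of 13 tested). With TRDC or TRGC1, 0 of 10 tested passed.

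Between libraries the same lists gave counts at 1.5-fold that are read against the shares of all genes given above. Of 16 gamma delta-associated genes 1 was higher and 3 lower in sham than naïve blood, 5 higher and 2 lower in SCI than naïve blood, 9 higher and 0 lower in SCI than sham blood, and 2 higher and 3 lower in the cord than SCI blood. KLRC1, which encodes the NKG2A receptor, was lower in sham than naïve blood (log2 ratio -3.51) and KLRD1 higher in SCI than sham blood (1.40). Of the MAIT-associated genes tested, 0 of 22 were higher and 2 lower in sham than naïve blood, 4 and 3 in SCI than naïve blood, 5 and 1 in SCI than sham blood, and 11 and 2 of 20 in the cord than SCI blood. Some of these 11 rested on few UMIs in the cord, down to 2. At least 2 UMIs of the 9 myeloid genes were held by 12.8% of cord T cells, against 0.849% in SCI blood. The part of such cells in these list counts was not tested. CXCR6 was higher in the cord (3.94, 3.48 to 4.38), where SLC4A10 was not found. Of 13 naive and recent thymic emigrant genes, 0 were higher or lower in sham than naïve blood, 6 were higher and 1 lower in SCI than naïve blood, 5 and 0 in SCI than sham blood, and 2 and 9 in the cord than SCI blood. NOG, a secreted inhibitor of bone morphogenetic proteins, was higher in SCI than naïve blood (1.59, 1.14 to 2.08) and had 0 UMIs in the cord, where TCF7, a transcription factor of naive T cells, was lower (-1.17). Of the effector genes tested, 0 of 7 were higher and 2 lower, 1 and 1 of 7, 2 and 0 of 8, and 2 and 1 of 7 in the same order of comparisons, and the 3 alpha beta constant genes stayed within 1.5-fold in all 4.

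Human cells without a CD3 UMI also carried the constant genes, the delta and gamma genes in different cell types. Cells with at least 2 UMIs over HDC, CPA3 and TPSAB1 (basophil or mast cell genes) and fewer of the monocyte genes held TRDC in 12 of 64 in naïve blood (18.8%), 21 of 81 in sham (25.9%), 14 of 95 in SCI blood (14.7%) and 6 of 12 in the cord, at 144, 144, 99.6 and 459 CPM. In the blood libraries they held TRGC2 in 0, 1 and 0 cells. Cells with at least 2 UMIs over LYZ, CD14, S100A8, S100A9 and MNDA (monocyte genes) and fewer of the basophil or mast genes showed the reverse, with TRGC1 in 25.0%, 29.2% and 19.0% and TRGC2 in 31.1%, 34.8% and 23.8% of 132, 89 and 21 cells in blood, and TRDC in 1, 1 and 0 cells. The few cells without CD3 but with at least 2 UMIs over NCAM1, KLRF1, NCR1 and SH2D1B held TRDC in 2 of 2, 4 of 4 and 5 of 5, and KLRB1 in 2, 3 and 4. These values differ between cell types by far more than the 0% to 0.463% and 0.0772% to 1.12% of B cells, at median depths of 2874 to 4701 UMIs in basophil or mast cells and 5826 to 8691 in monocytes.

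**Figure D5:**
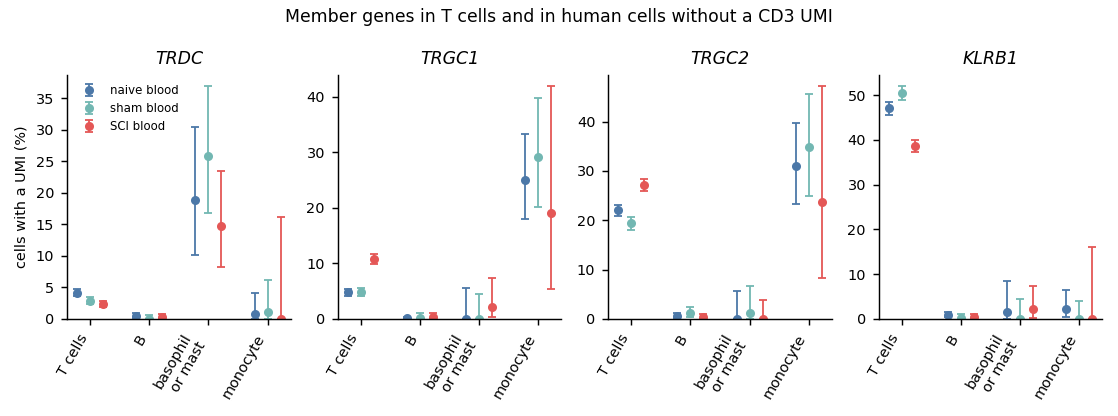
Percent of cells with at least 1 UMI of TRDC, TRGC1, TRGC2 or KLRB1 (y axis, each panel with its own range) in T cells and in human cells without a CD3 UMI that hold B, basophil or mast, or monocyte genes (x axis), by blood library. Bars are exact binomial 95% intervals. Of the 4 kinds of cell plotted, TRDC is highest in basophil or mast cells, TRGC1 and TRGC2 are frequent in monocytes, and KLRB1 is at most 2.27% in the 3 kinds other than T cells. The few NK-gene cells are not plotted.

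The NK gate was more frequent in TRDC-positive T cells than in T cells at large. Myeloid markers were so in sham and SCI but not in naïve blood. The NK gate held 5.21%, 13.2% and 15.5% of TRDC-positive T cells in naïve, sham and SCI blood, against 1.90%, 2.95% and 5.18% of all T cells, with a summed level of 124, 444 and 256 CPM against 53.5, 84.4 and 79.0 CPM. NCR1 and SH2D1B were at 0 in TRDC-positive T cells of naïve blood, and NCAM1 and NCR1 in those of sham blood. Most UMIs of the gate were of TYROBP and FCER1G. The other 4 genes summed to 7.49, 14.4 and 55.5 CPM in TRDC-positive T cells, against 1.02, 0.685 and 2.33 CPM in all. At least 2 UMIs of these 4 were held by 1, 2 and 6 TRDC-positive T cells (0.521%, 1.75% and 5.17%), against 0.0649%, 0.0763% and 0.162% of all. At least 2 UMIs of the 9 myeloid genes were held by 1.04%, 7.02% and 3.45% of TRDC-positive T cells, against 1.34%, 1.47% and 0.849% of all T cells, with summed levels of 50.6, 2991 and 190 CPM against 786, 1001 and 197 CPM. The part of these cells in the TRDC values was not tested beyond leaving them out, which gave log2 ratios of -0.86 for SCI against naïve blood and -0.73 for SCI against sham blood, both still past 1.5-fold.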

How the data were processed

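Human CD45+ cells of 3 blood samples and 1 injured spinal cord were profiled with the 10x Genomics platform. The authors aligned reads with Cell Ranger to joined human and mouse genomes (hg38 and mm10; CellRanger 3.1.0 per the file headers) and deposited raw UMI counts per gene and barcode. Kept were barcodes with over 50% human UMIs, within 3 median absolute deviations of UMIs, genes and mitochondrial and ribosomal percent. Scrublet, run through scanpy 1.11.5, marked doublets, of which those above 3000 genes were dropped (61, 76 and 93 in naïve, sham and SCI blood, 0 in the cord).

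Counts were summed over T cells and scaled to CPM, leaving ribosomal and mitochondrial genes out of the total. Log2 ratios used a prior of 0.5 counts and genes with at least 20 counts in the pair. Intervals are exact binomial (Clopper-Pearson) for shares, exact Poisson for levels and conditional binomial for ratios, at the 95% level. They cover counting error only. The deposited counts allow no test between conditions with 1 library each. No clustering was used, since gates on single genes answer the question. The ratios were also run on simulated data, with Poisson counts drawn from the summed T cell means. The intervals rest on the same counting model. The run therefore cannot show how they hold where few cells carry much of a gene's UMIs.

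Companion genes were, for each member with at least 20 positive T cells in each blood library, the 5 genes with the highest smallest ratio among genes with at least 30 counts, variable receptor segments left out because constant genes alone were studied. Of each list, members that passed were counted and those with high levels named. The members, lists and gates were chosen with earlier results of these data known. Computations used Python 3.11.15, numpy 2.4.6, scipy 1.17.1 and pandas 2.3.3. Alternatives covered the quality filters, doublets, the human and CD3 thresholds, markers of other cell types, the pattern definitions, depth, scaling and the count minimum. Some genes of the lists are counted but not reported here by name.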

Additional observations from a re-analysis of the deposited data

Results flagged for a closer look

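Signals outside the T cells exceeded those of B cells of the same library. In cells without CD3 and with basophil or mast genes, the TRDC shares were 18.8%, 25.9% and 14.7% (naïve, sham, SCI blood). In cells without CD3 and with monocyte genes, in that order, TRGC1 was found in 25.0%, 29.2% and 19.0% and TRGC2 in 31.1%, 34.8% and 23.8%. These barcodes entered no comparison of T cells.

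Barcodes with more mouse than human UMIs, likewise unused, held counts of mouse counterparts above the limit of 3 counts. Mouse Trdc gave 12 UMIs in naïve blood, 29 in sham and 47 in SCI blood. Mouse Zbtb16 gave 153 UMIs in sham, 96 in SCI blood and 5 in the cord. Mouse Tcrg-C1 gave 6 UMIs in SCI blood, in 1 barcode. Of the mouse Klrb1 genes, Klrb1a gave 10 UMIs and Klrb1b 12 in the cord, and Klrb1f gave 5 in sham blood. Mouse Trac was at 0 in all 4 libraries.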

How the results depend on the processing

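No paired analysis was possible because each condition had 1 library, which also left no replicate to leave out. The 78 cord T cells limit every cord value. Of 200 alternative values of the members' log2 ratios 169 moved by less than their counting interval, 28 by more, and 3 that were clear of 0 changed sign. Of 144 alternative shares 133 moved by less than the interval, as did 45 of 72 levels by gate. The sign of TRDC in sham against naïve blood turned to -0.13 without cells holding markers of other lineages and to -0.24 as a mean of the cells' own CPM, and in the cord against SCI blood to -0.40 without those cells. Without those cells, an alternative chosen after seeing the data for companion genes, 13 of 20 companions had a ratio in each blood library. Of these, FCGR3A of TRGC1 changed sign (-0.34), 1 counted as moved and 11 as unchanged. The 13 include XCL2 and MS4A2, which had at most 2 UMIs in the TRDC-positive cells of a library, too few for a comparison. The companions outside the 13 had at most 3 UMIs in both groups in at least 1 library. The number of members past 1.5-fold became 1 for SCI against naïve blood with equal gate weights and 4 for the cord against SCI blood with the mean of the cells' own CPM.

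The gamma delta pattern depended on its definition. Requiring TRDC without TRAC and TRBC gave 0.281%, 0.153% and 0.101% of T cells in naïve, sham and SCI blood, and at least 2 TRDC UMIs alone gave 3.10%, 2.31%, 1.80% and, in the cord, 5.13%. At least 2 TRDC UMIs with a gamma constant gene, chosen after seeing the data, gave 2.38%, 1.58% and 0.789%. Without cells holding other markers SCI blood gave 0.212%. For the MAIT-like pattern, any 2 of KLRB1, SLC4A10 and ZBTB16 gave 0.714%, 0.254% and 0.526%, and in SCI blood all 3 genes gave 0.0202%, thinning to 1000 UMIs 0.0202% and to 2000 UMIs 0.0203%. The cause of these changes was not tested beyond the definitions themselves.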
